A study of Mus musculus with 24 samples.

Results

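The 10 genes described here encode the 2 partners of the leukaemia fusion MLL::ENL, proteins that work with it, and 1 further methyltransferase of the MLL family: Kmt2a, Mllt1, Mllt3, Mllt10, Aff1, Aff4, Dot1l, Men1, Psip1 and Kmt2d. They were picked by symbol from the 55487 gene identifiers of the count table; all 10 were found, 1 identifier each, and all 10 passed the filter on low counts that left 18931 genes. RNA-seq was done on 24 libraries of mouse Lineage-Sca1+KIT+ cells, or LSK cells, the marrow and liver compartment that holds blood stem cells and early progenitors. ME cells came from mice carrying an inducible Tet-On MLL::ENL transgene that was switched on in the dish; the Control cells are named only as controls, and all cells were cultured for 48 h. The 6 groups of 4 libraries were E16 ME and E16 Control, from liver at embryonic day 16, P14 ME and P14 Control, from marrow at postnatal day 14, and 8wk ME and 8wk Control, from marrow at 8 weeks. The agent that switched on the transgene, its promoter, the number of animals and whether control cells received the agent are not given in the sources used here. Age and tissue cannot be told apart between E16 and the later ages.

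MLL, the product of Kmt2a, is a methyltransferase for lysine 4 of histone H3 that keeps Hox genes active in blood stem cells. Its amino-terminal part, which leukaemia fusions keep, binds menin (Men1) and through it LEDGF (Psip1), a reader of methylated histone that tethers the complex to chromatin. ENL (Mllt1) and its close relative AF9 (Mllt3) read acylated histone through a YEATS domain and bind either AFF1 or AFF4, scaffolds of the super elongation complex, or DOT1L, the methyltransferase for lysine 79 of histone H3, whose cofactor is AF10 (Mllt10). Kmt2d encodes MLL4, a methyltransferase of enhancers that is not part of the fusion complex.

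The RNA of Psip1, Mllt1, Aff4 and Kmt2a was higher in ME than in Control cells at each of the 3 ages, and that of Mllt3 was higher at E16 and P14. Averaged over the ages, Psip1 was 4.35-fold, Mllt1 2.91-fold, Aff4 2.59-fold, Kmt2a 1.83-fold, Mllt3 1.60-fold and Dot1l 1.51-fold higher in ME cells. Men1, Aff1 and Kmt2d were not called in any ME comparison, and Mllt10 was called lower only in the average, by 0.15 on the log2 scale. A gene was called when its adjusted p (edgeR quasi-likelihood test, Benjamini-Hochberg over all 18931 genes) was under 0.05.

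The sequences just upstream of 4 of the genes are given because 3 of them rose at every age and the last, Kmt2d, was called at none. Each is the 250 bases before the RefSeq start on mouse build GRCm38.p6, written 5′ to 3′ on the gene's own strand: Kmt2a at chr9:44881290-44881539 (minus strand), Mllt1 at chr17:56935389-56935638 (minus), Aff4 at chr11:53350517-53350766 (plus) and Kmt2d at chr15:98871206-98871455 (minus). Capitals mark matches on either strand to the GC box, spelled GGGCGG, to the CCAAT box, which is those same letters, or to the ETS-type motif CCGGAAG; neighbouring GC boxes can overlap.
Kmt2a: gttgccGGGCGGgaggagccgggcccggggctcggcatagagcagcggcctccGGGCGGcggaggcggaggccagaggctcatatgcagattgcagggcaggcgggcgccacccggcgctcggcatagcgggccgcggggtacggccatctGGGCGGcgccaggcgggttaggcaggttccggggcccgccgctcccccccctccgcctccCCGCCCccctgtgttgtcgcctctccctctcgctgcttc
Mllt1: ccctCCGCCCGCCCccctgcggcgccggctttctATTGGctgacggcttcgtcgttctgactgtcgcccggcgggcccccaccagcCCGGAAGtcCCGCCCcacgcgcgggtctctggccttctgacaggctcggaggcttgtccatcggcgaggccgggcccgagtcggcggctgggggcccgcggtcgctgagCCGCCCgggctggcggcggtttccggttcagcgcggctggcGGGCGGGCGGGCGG
Aff4: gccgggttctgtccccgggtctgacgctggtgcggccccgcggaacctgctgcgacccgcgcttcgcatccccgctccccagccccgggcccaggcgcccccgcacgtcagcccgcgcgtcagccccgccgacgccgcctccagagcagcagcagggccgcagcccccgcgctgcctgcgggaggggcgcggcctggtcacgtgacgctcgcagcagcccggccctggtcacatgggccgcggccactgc
Kmt2d: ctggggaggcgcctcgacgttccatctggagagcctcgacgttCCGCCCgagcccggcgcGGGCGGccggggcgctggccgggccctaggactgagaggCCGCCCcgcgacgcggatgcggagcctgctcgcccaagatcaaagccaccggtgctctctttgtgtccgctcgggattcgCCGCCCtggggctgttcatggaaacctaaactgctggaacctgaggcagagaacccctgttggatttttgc
In windows that run from these 250 bases to 50 bases past the start, Kmt2a held 36, Mllt1 46, Aff4 44 and Kmt2d 27 CpG dinucleotides, against a median of 7 over the 32851 windows of all genes. Of the 10 genes, 9 had windows, 15 in all, and 12 of the 15 were above that median. Psip1, which had the largest fold change, had no window. The GC box stood in 11 of the 15 windows and in 35.7% of all windows, and the CCAAT box in 7 of the 15 and in 37.4%. The ETS motif stood in 2 of the 15, those of Mllt1 and Dot1l, and in 8.86% of all windows. Windows of the same gene can overlap, as those of Men1 do. Counted by gene, 8 of the 9 had the GC box and 4 of the 9 the CCAAT box. The letters TATAAA (13.6% of all windows) and CGCATGCG (1.87%) were in none of the 15. Aff4, which rose, had none of the 5 motifs, and Kmt2d, which was not called, had the GC box, as Kmt2a did. These letter matches describe the windows only. Counts of Kmt2a and Mllt1 may also hold transcripts of the transgene, whose promoter is not given in the sources used here.

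The libraries held between 33.9 and 69.3 M counts each (median 47.1 M). Kit ranged from 376 to 1763 CPM (counts scaled to library size, after TMM normalisation) and Ly6a, which encodes Sca1, from 61.9 to 827 CPM, so both defining markers of the sorted cells were present in every library. On the list of 9 liver and stromal markers, the liver genes Alb, Apoa1 and Ttr reached at most 0.553 CPM and Afp ran from 5.26 to 26.9 CPM. On the same list Pdgfrb of stromal cells ran from 27.1 to 113 CPM and Pecam1 of endothelial cells from 30.3 to 86.3 CPM. The T-cell gene Cd3e was at most 0.0802 CPM, while Cd4 averaged 7.47 ± 0.73 CPM in P14 ME and 3.98 ± 0.71 CPM in P14 Control (SD, n = 4 each) and was called higher there. Of 12 markers of LSK and stem cells, 4 were called higher and 1 lower at E16, 3 and 1 at P14 and 4 and 2 at 8wk, beside 13.3% of all genes higher and 8.47% lower at E16, 12.7% and 9.35% at P14 and 14.2% and 14.3% at 8wk. Kit averaged 1463 ± 303 CPM in 8wk ME and 487 ± 90.6 CPM in 8wk Control (SD, n = 4 each). Among the markers called lower, Cd48 averaged 172 ± 25.7 CPM in 8wk ME and 362 ± 124 CPM in 8wk Control. Others called lower were Cd34 at P14 and Slamf1 at E16. The summed level of 16 mature lineage markers ran from 131 to 909 CPM in E16 ME and from 734 to 904 CPM in E16 Control. It ran from 64.6 to 196 CPM in P14 ME against 86.9 to 168 CPM in P14 Control, and from 237 to 524 CPM in 8wk ME against 239 to 569 CPM in 8wk Control. Of the 15 such markers tested, 2 were called higher and 2 lower at E16, 4 higher and 0 lower at P14 and 5 higher and 0 lower at 8wk; Cd14 of monocytes averaged 71.1 ± 57.0 CPM in 8wk ME and 1.89 ± 1.88 CPM in 8wk Control (SD, n = 4 each). The part of these cells in the results was not tested, and in bulk RNA fewer cells of a type and less RNA per cell cannot be told apart. Of the 24 libraries, 3, E16 ME replicate 4, 8wk ME replicate 4 and 8wk Control replicate 1, stood apart from their groups on the first principal component, by 51.4, 57.5 and 57.9 units, against at most 15.9 for the other 21. The members called at each age, and some single values, are given with and without them. Marker levels, list genes and correlations are not given without these 3.

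At E16, 5 of the 10 genes were called higher in ME and 0 lower, against 13.3% of all genes called higher and 8.47% lower. At P14 the counts were again 5 and 0, against 12.7% and 9.35%, and at 8wk 4 and 0, against 14.2% and 14.3%. The genes called were those whose 4 ME libraries all lay above the 4 Control libraries, 5, 5 and 4 of the 10, a pattern found in 14.5%, 14.1% and 12% of all genes at E16, P14 and 8wk. Kmt2a, Mllt1, Aff4 and Psip1, 4 of 10, were called higher at all 3 ages, as were 1266 of the 18931 genes (6.69%). In the average over ages, 6 were called higher and 1 lower, against 24.2% and 22.2% of all genes. The 10 genes were chosen with earlier results of these data known, so these shares are descriptions and not an independent test. The levels of Kmt2a and Mllt1 may also hold transgene transcripts. The median log2 fold change of the 10 genes was 0.66 at E16, 0.78 at P14 and 0.46 at 8wk, beside 0.02, 0.03 and -0.02 for all genes. Without the 3 libraries that stood apart, 5, 5 and 6 of the genes were called at E16, P14 and 8wk. The 2 added at 8wk were Dot1l, at a log2 fold change of 0.82 (edgeR adjusted p = 0.0273), and Mllt10, at -0.28 (adjusted p = 0.0475). Among all called genes 61.1%, 57.5% and 49.8% were higher in ME at E16, P14 and 8wk; with library size as the only scaling the shares were 74.6%, 70.5% and 56.6%, the median log2 fold change of all genes was 0.11 at E16 and 0.11 at P14, and 5, 5 and 4 members were again called. With only the groups compared in the fit, the share at 8wk was 67.9%.

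**Figure D1:**
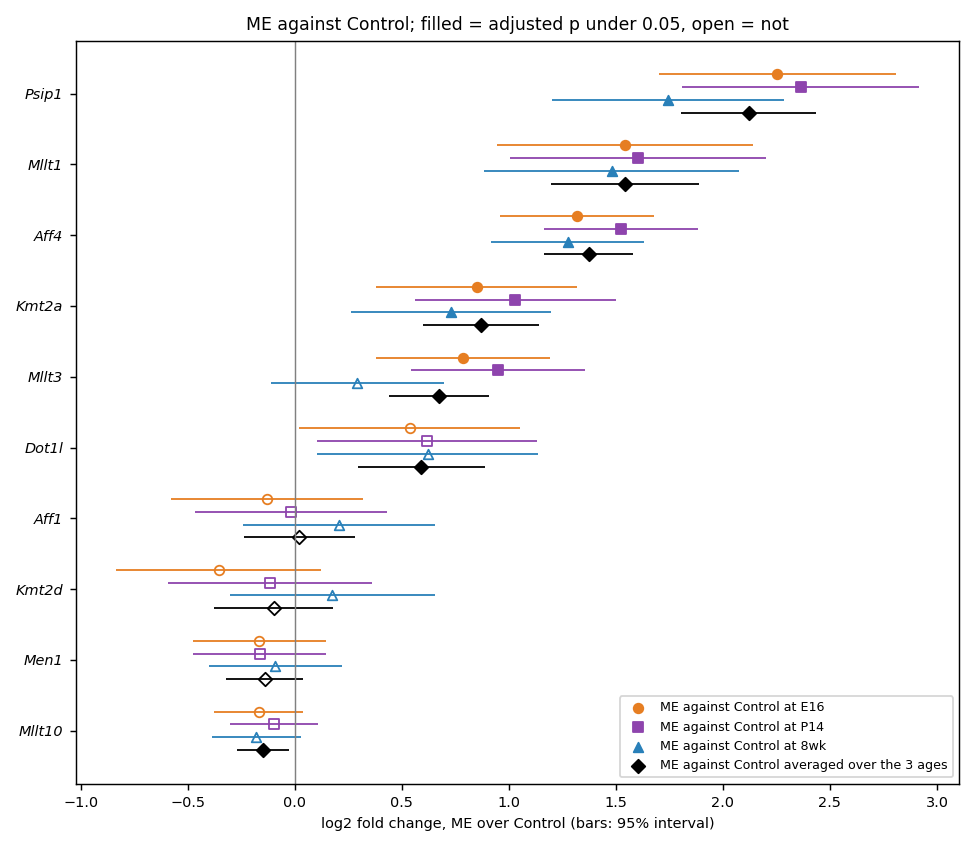
Log2 fold change of ME over Control for each of the 10 genes (rows) at E16, P14, 8wk and averaged over the ages, with 95% intervals; filled markers passed an adjusted p of 0.05. Psip1, Mllt1, Aff4 and Kmt2a lie right of 0 at every age, from 0.73 to 2.36, while Aff1, Kmt2d, Men1 and Mllt10 lie near 0.

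Kmt2a (ENSMUSG00000002028, GRCm38 chromosome 9, 44803355 to 44881296, minus strand, 16.7 kb of exon) supplies the amino-terminal part of the fusion. At E16 it had 18.4, 20.1, 14.5 and 17.2 CPM in the 4 ME libraries, against 11.7, 9.81, 6.34 and 11.1 CPM in the Control libraries. At P14 the ME libraries had 30.8, 32.7, 22.7 and 18.7 CPM and the Control libraries 10.7, 8.40, 17.1 and 15.1 CPM. At 8wk the ME libraries had 26.9, 27.1, 25.4 and 17.6 CPM and the Control libraries 15.3, 16.2, 11.9 and 15.1 CPM. The groups did not overlap at any age, but the lowest ME library at P14 and at 8wk, replicate 4 both times, lay close to the highest Control library. The log2 fold change of Kmt2a was 0.85 ± 0.23 (SE; edgeR adjusted p = 0.00946), 1.03 ± 0.23 (0.00212) and 0.73 ± 0.23 (0.0183) at E16, P14 and 8wk. The call at 8wk was lost without 8wk ME replicate 2 (adjusted p = 0.0530) and without 8wk Control replicate 3 (0.0598); over all its alternatives the adjusted p ran from 0.00616 to 0.0598. Transgene and endogenous transcripts were not told apart in these gene-level counts, so the levels of Kmt2a and Mllt1 may hold both.

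Mllt1 (ENSMUSG00000024212, chromosome 17, 56892611 to 56935415, minus strand, 3.92 kb of exon) supplies its carboxy-terminal part. At E16 it had 55.1, 58.1, 60.05 and 41.6 CPM in ME libraries, against 26.7, 19.0, 14.1 and 13.9 CPM in Control libraries. The P14 values were 89.3, 73.7, 63.8 and 39.8 CPM in ME and 29.8, 16.7, 27.7 and 13.6 CPM in Control. The 8wk values were 54.0, 54.8, 50.8 and 35.7 CPM in ME and 20.7, 20.3, 9.90 and 19.0 CPM in Control. Replicate 4 was the lowest ME library at each age and still lay above every Control library. The log2 fold change of Mllt1 was 1.54 ± 0.29, 1.60 ± 0.29 and 1.48 ± 0.29 at E16, P14 and 8wk (SE; edgeR adjusted p = 6.00e-04, 3.60e-04 and 7.25e-04). After the trend of each library's counts with transcript GC content was removed, it was 1.36, 1.27 and 1.19, and it stayed called at each age.

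Psip1 (ENSMUSG00000028484, chromosome 4, 83455680 to 83486459, minus strand), which encodes LEDGF, had the largest fold change of the 10 genes. At E16 it had 78.5, 67.5, 58.6 and 49.5 CPM in ME libraries and 20.5, 11.9, 7.39 and 13.4 CPM in Control libraries. At P14 the values were 79.4, 81.4, 107.3 and 72.4 CPM in ME against 23.3, 15.1, 15.5 and 12.3 CPM in Control. At 8wk they were 57.0, 69.7, 77.2 and 67.7 CPM in ME against 28.5, 22.7, 14.8 and 15.1 CPM in Control. Every ME library lay well above every Control library. The log2 fold change was 2.25 ± 0.27, 2.36 ± 0.27 and 1.74 ± 0.26 at E16, P14 and 8wk (SE; edgeR adjusted p = 5.69e-06, 2.62e-06 and 6.46e-05). Only 623, 707 and 1298 of the 18931 genes had a higher log2 fold change than Psip1 at E16, P14 and 8wk. Psip1 shares 9.50% of its exon length with Snapc3 on the opposite strand, and the strand setting of the counting is not given in the sources used here. Snapc3 was not called at E16 or P14 and was called lower at 8wk, at -0.37 ± 0.13 log2 (adjusted p = 0.0324).

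Men1, which encodes menin, the partner that joins MLL to LEDGF, ranged from 83.6 to 138 CPM in E16 ME and from 114 to 138 CPM in E16 Control. It ranged from 98.6 to 128 CPM in P14 ME against 110 to 170 CPM in P14 Control, and from 84.0 to 96.9 CPM in 8wk ME against 77.7 to 114 CPM in 8wk Control. The groups overlapped at every age. Its log2 fold change averaged over the ages was -0.14 ± 0.09 (SE; edgeR adjusted p = 0.195), with a 95% interval from -0.32 to 0.04. Once the GC trend was removed, the average was -0.22 and was called (adjusted p = 0.0119).

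Aff4 (ENSMUSG00000049470, chromosome 11, 53350833 to 53421830, plus strand), a scaffold of the super elongation complex, rose at every age. At E16 it had 20.9, 30.8, 31.9 and 24.96 CPM in ME libraries and 12.4, 13.1, 9.11 and 8.89 CPM in Control libraries. At P14 it had 39.7, 35.6, 46.0 and 28.4 CPM in ME against 14.2, 10.4, 15.3 and 12.2 CPM in Control. At 8wk it had 32.6, 35.9, 43.8 and 38.1 CPM in ME against 15.8, 17.0, 14.8 and 14.5 CPM in Control. The lowest ME library of each age stood above the highest Control library of any age. The log2 fold change was 1.32 ± 0.17, 1.52 ± 0.17 and 1.28 ± 0.17 at E16, P14 and 8wk (SE; edgeR adjusted p = 1.46e-05, 2.62e-06 and 2.00e-05). Aff1, its relative and also a scaffold of the complex, ran from 23.3 to 57.2 CPM in E16 ME against 37.7 to 50.4 CPM in E16 Control. The P14 range was 31.3 to 44.6 CPM in ME against 29.6 to 48.4 CPM in Control, and the 8wk range was 38.7 to 61.9 CPM in ME against 35.0 to 55.5 CPM in Control. Aff1 overlapped between groups at every age, and its average log2 fold change was 0.02, with a 95% interval from -0.24 to 0.28 (edgeR adjusted p = 0.908).

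Mllt3, which encodes AF9, had 21.3, 22.0, 24.9 and 45.5 CPM in E16 ME, against 15.7, 15.5, 17.8 and 17.0 CPM in E16 Control. At P14 it had 37.8, 39.2, 35.3 and 41.5 CPM in ME and 19.6, 21.8, 19.9 and 18.3 CPM in Control. At 8wk it had 17.2, 20.2, 26.4 and 30.9 CPM in ME and 22.1, 20.0, 18.3 and 17.0 CPM in Control. The groups were separate at E16 and P14 and overlapped at 8wk, where replicates 3 and 4 of ME were above all Control libraries. The log2 fold change was 0.79 ± 0.20 (SE; edgeR adjusted p = 0.00605), 0.95 ± 0.20 (0.00126) and 0.29 ± 0.19 (0.279) at E16, P14 and 8wk. Without E16 ME replicate 4, one of the libraries that stood apart, the E16 value was 0.46 and still called (adjusted p = 0.0428). The difference of the ME effects, 8wk minus P14, was -0.66 ± 0.28 log2 with an adjusted p of 0.352. Without the 3 libraries apart it was -0.74 and was called (adjusted p = 0.0212). 

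Dot1l, the histone H3 lysine 79 methyltransferase, had 15.5, 20.3, 24.9 and 23.4 CPM in E16 ME, against 20.1, 16.0, 9.85 and 11.9 CPM in E16 Control. It had 25.7, 25.001, 24.8 and 19.5 CPM in P14 ME against 18.8, 12.2, 20.3 and 10.6 CPM in P14 Control. At 8wk it had 20.3, 20.3, 28.3 and 23.6 CPM in ME against 21.2, 15.6, 9.17 and 14.1 CPM in Control. ME libraries were mostly higher, but at each age at least 1 Control library reached into the ME range. Dot1l was not called at any single age, with log2 fold changes of 0.54, 0.62 and 0.62 (edgeR adjusted p = 0.130, 0.0788 and 0.0654 at E16, P14 and 8wk). Over the 3 ages together it averaged 0.59 ± 0.14 (SE; adjusted p = 0.00176) and was called in all 33 alternatives of that comparison. Its cofactor gene Mllt10 ran from 36.4 to 43.8 CPM in E16 ME against 39.3 to 46.2 CPM in E16 Control. Its P14 range was 37.6 to 46.5 CPM in ME against 40.8 to 48.1 CPM in Control, and its 8wk range 30.8 to 41.3 CPM in ME against 38.8 to 43.6 CPM in Control. The average of -0.15 ± 0.06 log2 for Mllt10 (adjusted p = 0.0402) stayed called in 10 of 33 alternatives. Mllt10 shares 12.7% of its exon length with Dnajc1 on the opposite strand, which was called higher at E16, at 0.81 ± 0.28 log2 (adjusted p = 0.0432), and at P14, at 0.88 ± 0.28 log2 (0.0269).

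Kmt2d, the enhancer methyltransferase outside the fusion complex, ran from 23.3 to 41.5 CPM in E16 ME against 31.6 to 55.1 CPM in E16 Control. At P14 it ran from 23.3 to 39.6 CPM in ME against 26.7 to 48.0 CPM in Control, and at 8wk from 26.2 to 40.7 CPM in ME against 17.8 to 31.0 CPM in Control. The groups overlapped at every age. The log2 fold change was -0.36, -0.12 and 0.18 at E16, P14 and 8wk, and the average was -0.10, with a 95% interval from -0.37 to 0.18 (edgeR adjusted p = 0.574).

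**Figure D2:**
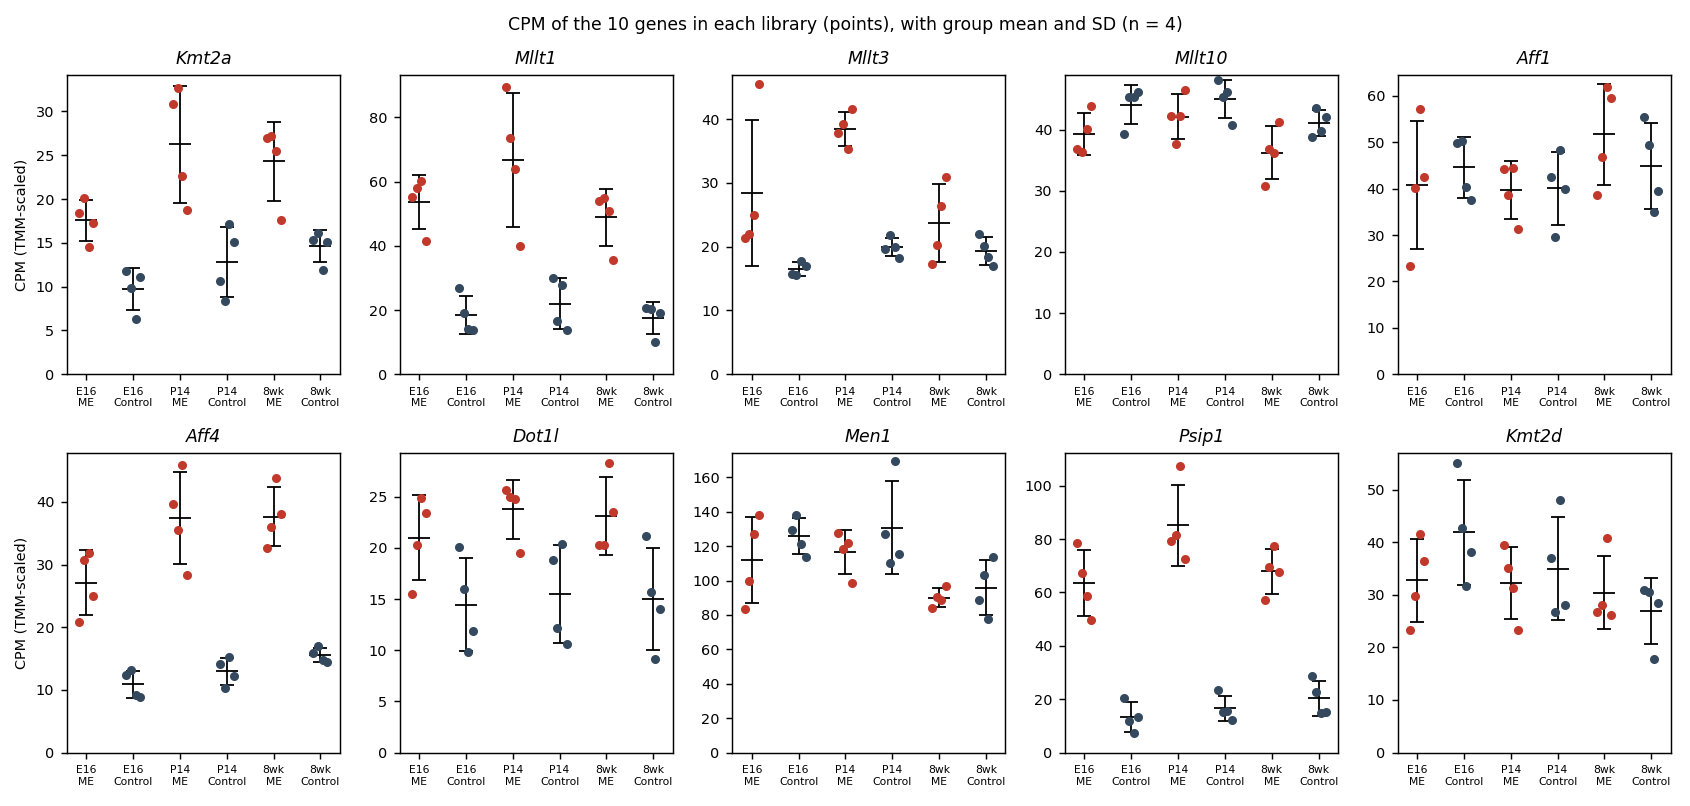
CPM of each of the 10 genes in the 24 libraries (points, replicates 1 to 4 from left to right within a group), ME red and Control dark, with the group mean and SD (n = 4). Aff4 and Psip1 show ME points far above the Control points at each age, while Aff1, Men1 and Kmt2d overlap.

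Per kb of all annotated exon bases, Men1 was the highest of the 10 genes in all 6 groups and Kmt2a the lowest. Men1 also has the shortest exon length of the 10 genes, at 3.835 kb, while Kmt2a has 16.67 kb and Kmt2d 19.931 kb. Annotated bases absent from the transcripts of these cells would lower a gene's value. The part of exon length in the order was not tested. Men1 averaged 29.2 ± 6.51 CPM per kb in E16 ME and 32.8 ± 2.73 in E16 Control (SD, n = 4 each), and no library of the next gene reached its lowest library. In ME cells the next 2 genes were Mllt1 and Psip1, which overlapped with each other at every age. At E16 Mllt1 averaged 13.7 ± 2.13 CPM per kb in ME and 4.70 ± 1.53 in Control, and Psip1 12.5 ± 2.43 in ME and 2.62 ± 1.07 in Control. In Control cells the gene after Men1 was Mllt10 at each age, with 7.47 ± 0.54 CPM per kb at E16, 7.63 ± 0.52 at P14 and 6.95 ± 0.37 at 8wk. Over the 6 groups, Aff1, Mllt3, Dot1l, Aff4 and Kmt2d averaged between 0.81 and 5.47 CPM per kb, and most neighbours in the order overlapped. Kmt2a averaged 1.05 ± 0.14 CPM per kb in E16 ME, 1.57 ± 0.40 in P14 ME and 1.46 ± 0.27 in 8wk ME, against 0.58 ± 0.14, 0.77 ± 0.24 and 0.88 ± 0.11 in the Control groups of those ages.

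**Figure D3:**
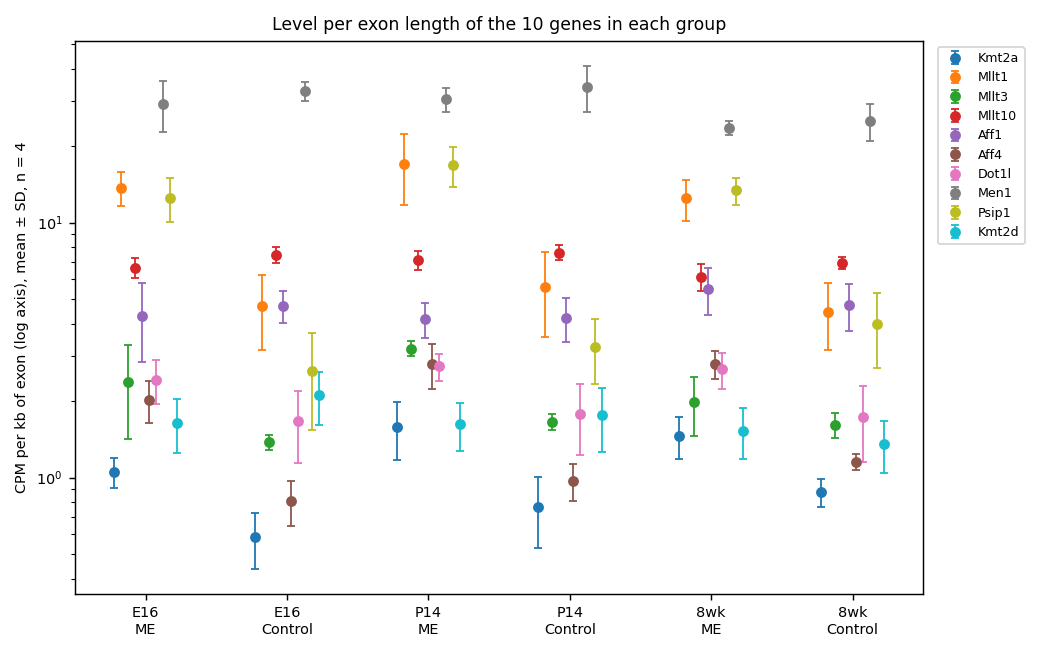
Mean CPM per kb of exon on a log axis, with SD (n = 4), for the 10 genes in each group. Men1 is at the top and Kmt2a at the bottom of every group, and Mllt1 and Psip1 come next in the ME groups.

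The differences of the ME effect between ages were tested directly. None of the 10 genes was called for P14 minus E16, 8wk minus E16 or 8wk minus P14, in edgeR, DESeq2 or limma-voom, against 0.0211%, 0.85% and 0.301% of all genes. At an unadjusted p under 0.05 there were 0, 0 and 1, the last being Mllt3. For Psip1 the 8wk minus P14 difference was -0.62 ± 0.36 log2, with a 95% interval from -1.37 to 0.13. For Mllt1 it was -0.12 ± 0.40 log2, with an interval from -0.95 to 0.70. The intervals are wide beside the effects of most genes.

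Among Control cells 0 of the 10 genes was called between P14 and E16, 0 between 8wk and P14, and 1 between 8wk and E16, against 15.1%, 12.6% and 23.3% of all genes. At an unadjusted p under 0.05 there were 0, 1 and 5; DESeq2 called 0, 1 and 3 and limma-voom 0, 1 and 1. The libraries of the 2 ages did not overlap for 1, 0 and 4 of the 10 genes, beside 24.5%, 16.1% and 25.7% of all genes. Aff4 was called higher at 8wk than at E16, at 15.5 ± 1.15 CPM in 8wk Control and 10.9 ± 2.20 CPM in E16 Control (SD, n = 4 each), a log2 fold change of 0.51 ± 0.17 (edgeR adjusted p = 0.0334). That call was lost in limma-voom (adjusted p = 0.0503), after removal of the GC trend (0.0813), with only the groups compared (0.0567), without the 3 libraries apart (0.0569), and without E16 Control replicate 3 (0.108), E16 Control replicate 4 (0.108), 8wk Control replicate 1 (0.0519), 8wk Control replicate 2 (0.0881) or 8wk Control replicate 3 (0.0584). Over all its alternatives the lowest value was 0.42 log2. Kmt2d averaged 26.9 ± 6.22 CPM in 8wk Control and 41.9 ± 9.93 CPM in E16 Control, at -0.64 ± 0.23 log2 and an adjusted p of 0.0501. Men1 averaged 95.9 ± 15.9 CPM in 8wk Control, 131 ± 27.0 CPM in P14 Control and 126 ± 10.5 CPM in E16 Control. Its log2 fold change was -0.45 ± 0.15 from 8wk over P14 (adjusted p = 0.0532) and -0.39 ± 0.15 from 8wk over E16 (0.0637). Kmt2a was 0.59 ± 0.23 log2 higher in 8wk than in E16 Control (adjusted p = 0.0641).

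Library by library, some of the 10 genes moved together within groups. The deviation of log2 CPM from the group mean was correlated for each of the 45 pairs over the 24 libraries, with 100000 permutations within groups. Of the 45 pairs 16 passed at an adjusted p under 0.05, all positive, and 11 of the 16 also passed by Spearman rho. The share of passing pairs among other genes was not measured, so 16 of 45 cannot be set against a background. The strongest was Dot1l with Kmt2d (Pearson r = 0.901, permutation p = 1e-05, the smallest these permutations can give, adjusted p = 2.25e-04; Spearman rho = 0.906). Without the 2 libraries farthest from the median it was 0.872. Aff1 with Aff4, the 2 scaffolds, gave r = 0.835 (permutation adjusted p = 3.00e-04; rho = 0.833; 0.789 without the 2 farthest libraries). Dot1l was in 6 of the 16 pairs, Aff4 and Kmt2d in 5 each, and Kmt2a in none. Kmt2a with Mllt1, the 2 partners of the fusion, gave r = 0.538 (rho = 0.507) with a permutation adjusted p of 0.0745. Mllt3 passed only with Mllt10, at r = 0.629 (permutation adjusted p = 0.0176; 0.471 without the 2 farthest libraries), and not by rho (0.525, permutation adjusted p = 0.0704).

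**Figure D4:**
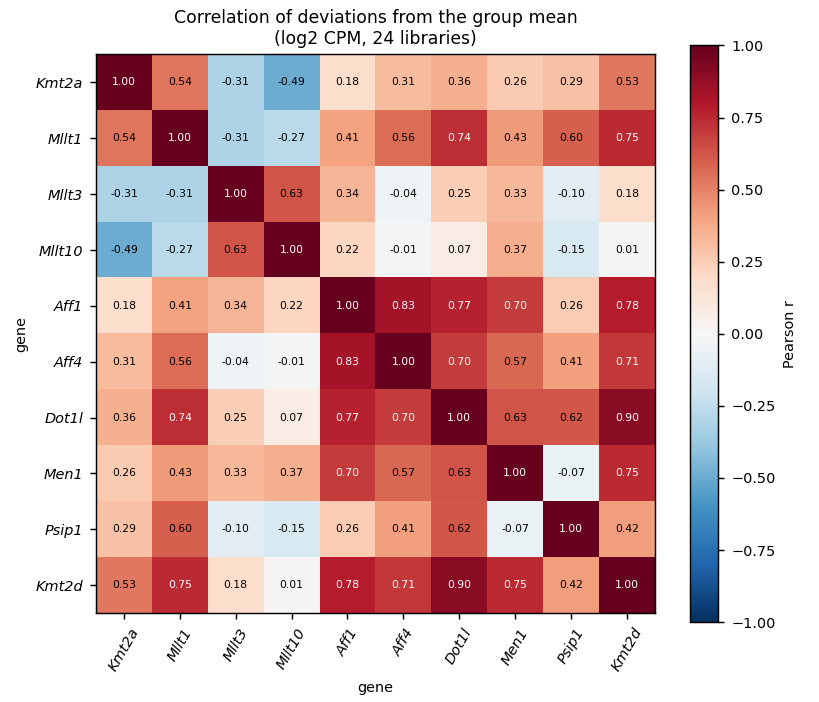
Pearson r between the deviations of log2 CPM from the group mean for each pair of the 10 genes over 24 libraries, red positive and blue negative. Aff1, Aff4, Dot1l, Men1 and Kmt2d form a block of high values, with Dot1l and Kmt2d at 0.901. Mllt1 has 0.748 with Kmt2d, 0.736 with Dot1l and 0.557 with Aff4, against 0.428 with Men1 and 0.406 with Aff1.

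A property of the libraries, drawn from the same gene levels, moved with some of these genes. For each library the slope of gene level on transcript GC content was measured; over 24 libraries its deviation from the group mean correlated with that of Mllt1 (r = 0.809, rho = 0.801, permutation p = 5e-05, adjusted p = 0.001 over 20 relations; 0.765 without the 2 farthest libraries). It also correlated with Kmt2d (r = 0.644, rho = 0.589, permutation adjusted p = 0.0258; 0.560 without the 2 farthest), Dot1l (r = 0.580, rho = 0.570, adjusted p = 0.0416; 0.542) and Men1 (r = 0.560, rho = 0.569, adjusted p = 0.0416; 0.501), and no gene passed with the library total. Mllt1 is the most GC-rich of the 10 genes, at 59.5% of the bases of its longest transcript, and Mllt3 the least, at 41.4%. Next after Mllt1 come Kmt2d, at 58.4%, Dot1l, at 57.5%, and Men1, at 57.0%. Because the slope was fitted to the levels of the tested genes, these included, GC-rich genes tend to follow it by construction. These correlations are therefore descriptions and not an independent finding about the genes. The median slope was 0.01 log2 per 10 percent GC in E16 ME and -0.02 in E16 Control, 0.10 in P14 ME and 0.00 in P14 Control, and 0.02 in 8wk ME and -0.13 in 8wk Control. The part of this slope in the pair correlations was not tested.

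Among the 9772 genes high enough to compare, 4 of the 5 whose log2 CPM followed Kmt2a most closely over the 24 libraries were Ncor1 (Pearson r = 0.918), Scmh1 (0.902), Ankrd13a (0.894) and Slain1 (0.890). Ncor1 encodes a nuclear receptor corepressor. For Mllt1 the 5 were Zfp598 (0.977), Gna11 (0.977), Klf16 (0.975), Paxip1 (0.973) and Ldb1 (0.973). Paxip1 encodes PTIP, a subunit of the MLL3 and MLL4 complexes, and Ldb1 a LIM-domain cofactor. The libraries share their 6 groups, so these coefficients include the difference between ME and Control and are given as descriptions.

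The other genes of the complexes came from lists drawn up beside the 10. Of 18 tested genes of the KMT2 COMPASS complexes, which hold the MLL family methyltransferases, 3 were called higher and 2 lower at E16, 3 and 4 at P14 and 3 and 4 at 8wk. Of all genes, 13.3% were called higher and 8.47% lower at E16, 12.7% and 9.35% at P14 and 14.2% and 14.3% at 8wk, so the higher counts are near the share over all genes. The median log2 fold change of the list was -0.16, -0.15 and -0.14, beside 0.02, 0.03 and -0.02 for all genes. Paxip1 averaged 60.8 ± 14.3 CPM in E16 ME and 21.5 ± 6.68 CPM in E16 Control (SD, n = 4 each), with log2 fold changes of 1.495 ± 0.24, 1.45 ± 0.24 and 1.39 ± 0.24 at E16, P14 and 8wk. Wdr82, a subunit of the SETD1 complexes, rose by 1.13 ± 0.24 log2 at E16 and 1.03 ± 0.24 log2 at P14. Of the core subunits shared by the family, Wdr5 and Ash2l were called lower at each age. Wdr5 averaged 163 ± 6.29 CPM in E16 ME and 205 ± 2.09 CPM in E16 Control, and Ash2l 151 ± 5.47 CPM in E16 ME and 186 ± 8.41 CPM in E16 Control. Their log2 fold changes at E16, P14 and 8wk were -0.33, -0.51 and -0.38 for Wdr5 and -0.30, -0.44 and -0.50 for Ash2l. Dpy30, another core subunit, was called lower at 8wk, at -0.71 ± 0.16 log2 with overlapping groups, and Rbbp5, also a core subunit, was called at no age (-0.02, -0.17 and 0.00 log2); Rbbp5 was named after its values were seen.

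Of 11 tested genes of the super elongation complex and P-TEFb, the kinase that releases paused RNA polymerase, 4 were called higher and 0 lower at E16, 4 and 0 at P14 and 3 and 1 at 8wk, beside 13.3% of all genes higher and 8.47% lower at E16, 12.7% and 9.35% at P14 and 14.2% and 14.3% at 8wk. At an unadjusted p under 0.05 there were 0 lower at E16 and 2 lower at P14. The median log2 fold change of the list was 0.05, -0.07 and 0.22. Aff3, another AFF scaffold, averaged 9.69 ± 3.69 CPM in E16 ME and 4.08 ± 1.19 CPM in E16 Control (SD, n = 4 each), and it rose by 1.24 ± 0.30, 1.39 ± 0.29 and 1.31 ± 0.29 log2 at E16, P14 and 8wk. Ell2, an elongation factor of the complex, averaged 66.5 ± 27.7 CPM in 8wk ME and 29.3 ± 4.01 CPM in 8wk Control, and rose by 0.65 ± 0.20, 0.66 ± 0.20 and 1.18 ± 0.20 log2 at E16, P14 and 8wk. Cdk9, the kinase itself, rose by 0.49 ± 0.18 log2 at E16 (edgeR adjusted p = 0.0493) and 0.55 ± 0.18 at P14, and its partner Ccnt2 was called lower at 8wk, at -0.30 ± 0.11 log2 (adjusted p = 0.04999).

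Of 14 tested partners of ENL and AF9 outside that complex, 1 was called higher and 3 lower at E16, 2 and 3 at P14 and 1 and 4 at 8wk, beside 13.3% of all genes higher and 8.47% lower at E16, 12.7% and 9.35% at P14 and 14.2% and 14.3% at 8wk. The median log2 fold change was -0.18, -0.22 and -0.29. Subunits of the PAF1 elongation complex, which binds MLL, moved in opposite directions. Cdc73 averaged 48.2 ± 23.6 CPM in E16 ME and 14.3 ± 2.74 CPM in E16 Control, with a log2 fold change of 1.75 ± 0.32, 2.10 ± 0.33 and 1.85 ± 0.33 at E16, P14 and 8wk. Ctr9 averaged 118 ± 23.9 CPM in E16 ME and 186 ± 17.5 CPM in E16 Control, at -0.65 ± 0.16, -0.67 ± 0.16 and -0.57 ± 0.16 log2. Paf1 was called lower at 8wk, at -0.43 ± 0.13 log2. Cbx8, a Polycomb protein that binds AF9 and ENL, was called higher at P14, at 10.7 ± 1.54 CPM in P14 ME and 6.92 ± 0.96 CPM in P14 Control (0.63 ± 0.19 log2). Mllt6, the AF17 relative of AF10, was called lower at E16, at 1.24 ± 0.29 CPM in E16 ME and 2.54 ± 0.76 CPM in E16 Control.

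**Figure D5:**
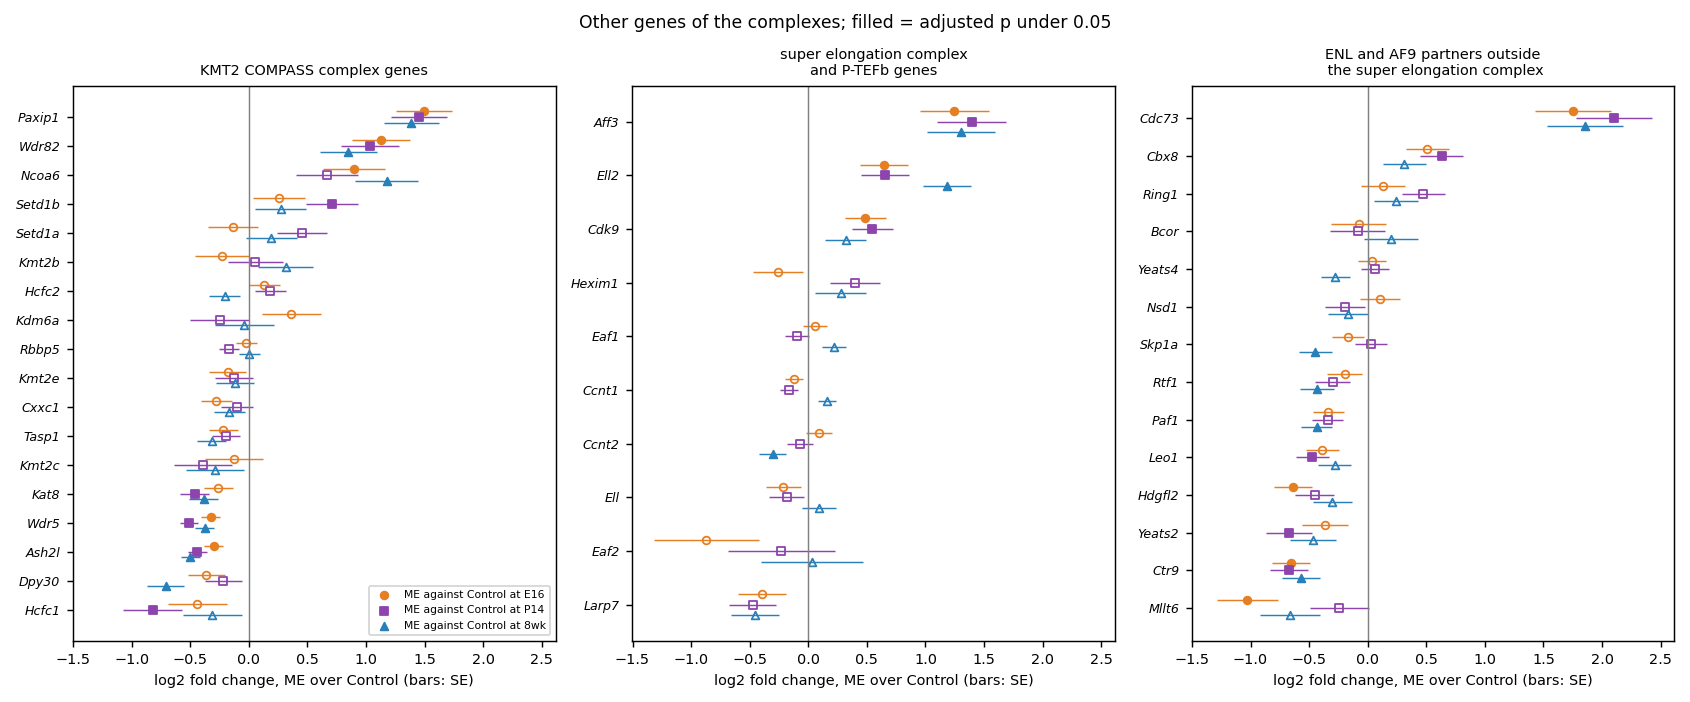
Log2 fold change of ME over Control, with SE, for genes of 3 lists at E16, P14 and 8wk; filled markers passed an adjusted p of 0.05. Paxip1, Aff3, Ell2 and Cdc73 are among the genes that rose at all 3 ages, and core subunits such as Wdr5, Ash2l and Ctr9 lie below 0.

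Of 18 tested genes on a list of further fusion partners of MLL, 5 were called higher and 0 lower at E16, 4 and 0 at P14 and 6 and 0 at 8wk, beside 13.3% of all genes higher and 8.47% lower at E16, 12.7% and 9.35% at P14 and 14.2% and 14.3% at 8wk. At an unadjusted p under 0.05 there were 1, 0 and 0 lower. The median log2 fold change was 0.11, 0.17 and 0.16. Arhgef12, a guanine nucleotide exchange factor, averaged 2.80 ± 0.80 CPM in E16 ME and 0.54 ± 0.18 CPM in E16 Control, with a log2 fold change of 2.39 ± 0.27, 1.37 ± 0.24 and 0.76 ± 0.24 at E16, P14 and 8wk. Afdn, which encodes the junction protein AF6, changed by 0.84 ± 0.27, 0.89 ± 0.27 and 0.81 ± 0.27 log2. Maml2, a Notch coactivator, rose at E16 by 1.33 ± 0.30 log2, and Picalm, a clathrin adaptor, rose by 0.56 ± 0.20 log2 at E16 and 0.68 ± 0.20 at P14.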

How the data were processed

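RNA-seq counts were used for 24 LSK libraries in 6 groups of 4, with groups and replicate numbers from the sample titles. The authors deposited raw counts for each Ensembl gene. STAR 2.7.9a, featureCounts 2.0.3 and GRCm38 are named in the submitters' processing notes, and a Qiagen RNeasy Plus kit and a Clontech kit in the labels. The annotation and strand setting are not given in the sources used here. Of 55774 lines, 168 identifiers were repeated with the same counts, and 1 line of each was used. Even values made up 63.6% of counts from 1 to 20 in the median library, so low counts may not be independent molecules. Coordinates, exon length and GC content came from GENCODE M21, which held 55141 of the identifiers, and promoter windows from RefSeq (GRCm38.p6).

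Genes were filtered with filterByExpr (minimum count 10), and 1 model with 6 group means was fitted to all 24 libraries by edgeR 4.0.16 (R 4.3.3), using TMM and robust quasi-likelihood dispersions. P-values were adjusted over all 18931 genes tested in each comparison. SE is that of the log2 fold change, and errors of CPM are SD over 4 libraries. The fit was tested on simulated data. Alternatives were DESeq2 1.42.0, limma-voom (limma 3.58.1), other scaling, a GC correction (spline with 5 degrees of freedom per library), no filter, only the groups compared, a replicate block, a Y-linked covariate, each library left out, and, chosen after the data were seen, the 3 libraries apart left out. Correlations used log2 CPM with a prior count of 2, with scipy 1.17.1. The members and lists were chosen with earlier results of these data known. From each list up to 4 called genes with the smallest adjusted p were open to naming. No label ties replicates to separate animals; p-values therefore rest on the spread among these libraries, and that spread may be technical. Of 4 tested liver and stromal markers 0 were called by edgeR in ME against Control at any age, and 0, 2 and 0 had an unadjusted p under 0.05 at E16, P14 and 8wk. Some genes of the lists and of the likeness ranking are counted but not reported by name here. Deviations of same-numbered ME and Control libraries correlated at 0.14 to 0.23 in all 4 pairs at P14. However, P14 ME replicates 2 and 3 correlated more with a Control library of another number (0.16 and 0.24) than with their own. Of 12 ME libraries over the ages, 3 correlated best with their own number. Whether numbers pair the samples at P14 is therefore uncertain, and no label gives it. At E16 and 8wk 1 of 8 pairs exceeded 0.1 (range -0.09 to 0.12).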

Additional observations from a re-analysis of the deposited data

Results flagged for a closer look

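Of 60 sets of 4 libraries (10 genes in 6 groups), 5 held 1 library far from the other 3 by Dixon's criterion, where chance gives about 1 in 20. Mllt1 had 9.90 CPM in 8wk Control replicate 3, below the other 3 libraries at 19.0 to 20.7 CPM. Mllt3 had 45.5 CPM in E16 ME replicate 4, above the others at 21.3 to 24.9 CPM. Mllt10 had 39.3 CPM in E16 Control replicate 1, below 45.4 to 46.2 CPM. Dot1l had 19.5 CPM in P14 ME replicate 4, below 24.8 to 25.7 CPM. Kmt2d had 40.7 CPM in 8wk ME replicate 3, above 26.2 to 28.1 CPM. Of these, E16 ME replicate 4 is among the 3 libraries that stood apart from their groups.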

How the results depend on the processing

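Over 2190 values of the 10 genes' log2 fold changes under the alternatives, 2001 kept direction and side of the threshold, 34 lost and 26 gained a call, 129 changed the sign of a value never called, and 0 reversed a called value. The members called in the ME comparisons at each age and in the average stayed within 1.5 times throughout. Leaving out 1 library gave 5 to 5 members at E16 and P14, 3 to 5 at 8wk and 6 to 7 in the average, 0 in each difference of effects, 0 to 0, 0 to 1 and 0 to 2 between Control P14 and E16, 8wk and P14, and 8wk and E16. Without the libraries apart, 1 member was called for 8wk minus P14. Between Control 8wk and P14, 1 member was called in DESeq2, limma-voom, with RLE and with library size only. Between Control 8wk and E16, 3 were called in DESeq2 and with RLE, 2 with only the groups compared and with the Y-linked covariate, and 0 after GC removal and without the libraries apart.

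Over all genes, leaving out 1 library gave 3024 to 3719 calls at E16, 2875 to 4409 at P14, 3433 to 6571 at 8wk (3433 without 8wk Control replicate 3) and 8298 to 9250 in the average. It gave 1 to 5, 48 to 896 and 4 to 369 for P14 minus E16, 8wk minus E16 and 8wk minus P14; the highest 2 came without 8wk Control replicate 1, and leaving out 8wk ME replicate 4 gave 739 and 224. Between Controls it gave 2091 to 2593, 929 to 3115 (929 without P14 Control replicate 3) and 3333 to 4916. With only the groups compared, calls were 2907 for ME at 8wk, 55 for 8wk minus E16, 0 for 8wk minus P14 and 1092 for Control 8wk against P14. DESeq2 gave 29, 603 and 298 for the 3 differences. Without the libraries apart there were 10, 1362 and 1009, and 3605 for Control 8wk against P14. The replicate block gave 2 for P14 minus E16 and 2 for 8wk minus P14, the Y-linked covariate 1 for P14 minus E16 and 60 for 8wk minus E16, and no filter 107 for 8wk minus E16 and 1483 for Control 8wk against P14. The causes were not tested. With the replicate block in edgeR, Mllt10 had an adjusted p of 0.0685 in the average. At P14, where pairing by number is uncertain, the block changed no call of the 10 genes. It left 3280 calls over all genes there, against 4168. Depth limited none of the 10 genes to few counts, and the spread between 4 libraries sets their precision.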
